A study of Mus musculus with 19 samples.

Results

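Ndufa11 encodes an accessory subunit of mitochondrial complex I and was followed here over 19 forebrain arrays of EphA4 knockout and wild-type mice. It was measured by the 1 row whose sole platform gene symbol is Ndufa11 (probe set 17338872), out of 1121 genes with a symbol of their own and 8751 rows in all. No row with several symbols listed it. The arrays comprised 5 of sleep-deprived knockout mice and 6 of sleep-deprived wild-type mice, besides 4 of knockout controls and 4 of wild-type controls. Knockout mice lack EphA4, a receptor tyrosine kinase of the Eph family, and the wild-type mice were their littermates. All were of strain Mixed BL6/10 and lived in cycles of 12 h light and 12 h dark, with no age in the labels. Sleep-deprived mice were kept awake for 6 h and controls were left undisturbed. Total RNA of the forebrain was hybridised to Affymetrix Mouse Gene 2.0 ST arrays, and values are log2 expression. Each array was labelled as a separate sample, but the labels do not tie arrays to animals, so a p-value here covers only sample-to-sample spread, which may be technical.

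Complex I, NADH:ubiquinone oxidoreductase, is the entry point of electrons from NADH into the respiratory chain and pumps protons across the inner mitochondrial membrane. It is built from core subunits that carry out the reaction and from accessory subunits that stabilise the complex. Ndufa11 is an accessory subunit of the membrane arm, encoded in the nucleus, and in humans its loss impairs complex I. Neurons draw most of their ATP from oxidative phosphorylation, so the chain is highly active in forebrain.

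In the RefSeq table of assembly GRCm38.p6, Ndufa11 is a protein-coding gene at chr17:56717762-56724248, whereas Epha4 lies on chromosome 1. A transcribed pseudogene, Ndufa11b, lies on chromosome 16 and had no row of its own. The probe sequences were not used here, so hybridisation of its transcript to the Ndufa11 probe set was not tested. The 250 bases before the annotated start of Ndufa11 are shown because they hold 2 named regulatory motifs. The RefSeq sequence (GRCm38.p6, chr17:56717512-56717761, + strand) is printed with both motifs in capitals.
Ndufa11 promoter: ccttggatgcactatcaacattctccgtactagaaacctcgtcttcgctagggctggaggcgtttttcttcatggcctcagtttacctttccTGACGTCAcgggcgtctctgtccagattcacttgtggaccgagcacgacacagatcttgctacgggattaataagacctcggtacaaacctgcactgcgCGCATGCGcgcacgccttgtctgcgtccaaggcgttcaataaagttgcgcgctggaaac
The first capitals spell TGACGTCA, the cAMP response element, and begin 158 bases before the start. The second spell CGCATGCG, the core of the motif of NRF1, nuclear respiratory factor 1, a regulator of nuclear genes for respiratory chain subunits, and begin 59 bases before it. Both motifs read the same on either strand, and they do not overlap. TGACGTCA was present in 1.55% of 32851 RefSeq windows of the same length and CGCATGCG also in 1.55%, and 13 windows (0.0396%) held both. Whether they meet more often than unlinked motifs would was not tested. The CCAAT box, the TATA box (TATAAA), the Sp1 motif (GGGCGG), an ETS motif (CCGGAAG) and an E-box (CACGTG) were searched on both strands as well, and these letters are not in the Ndufa11 window. They were present in 33.8%, 12.4%, 32.7%, 6.91% and 6.02% of the windows, in that order. These motifs were picked with the sequence in view, a match is not evidence of binding, and the arrays measured transcripts only.

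Array medians ran from 5.90 to 6.07 on the log2 scale, and precision is limited by how many arrays there are. The series' own text warns that its tables are incomplete, so a gene not found among these rows is simply not analysed here. No row carried the symbol Epha4, so the genotype labels could not be checked. Of 6 forebrain markers none had a row of its own, and of 31 markers of neurons, glia, vessels, choroid plexus and blood only Map2 did, so the tissue label and its cell makeup could not be checked either. In whole forebrain, a lower level per cell and fewer cells that express a gene cannot be told apart.

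Ndufa11 was highest in sleep-deprived wild-type mice and lay near a common lower level in the other 3 groups. In sleep-deprived knockout mice its log2 level was 6.88, 7.02, 6.58, 7.27 and 6.99 on the 5 arrays. In sleep-deprived wild-type mice the lowest of 6 arrays read 7.32, the median was 7.38 and the highest read 7.61. All 5 knockout arrays lay below all 6 wild-type arrays, with a gap of 0.05 between the nearest pair, knockout replicate 4 and wild-type replicate 5. The share of all rows that separate these groups as fully was not counted, and the gene was chosen for this contrast. Knockout controls read 6.79, 7.32, 7.08 and 6.96, and wild-type controls read 7.03, 7.05, 6.91 and 7.09. The control groups overlapped, with the wild-type arrays inside the range of the knockout arrays.

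**Figure D1:**
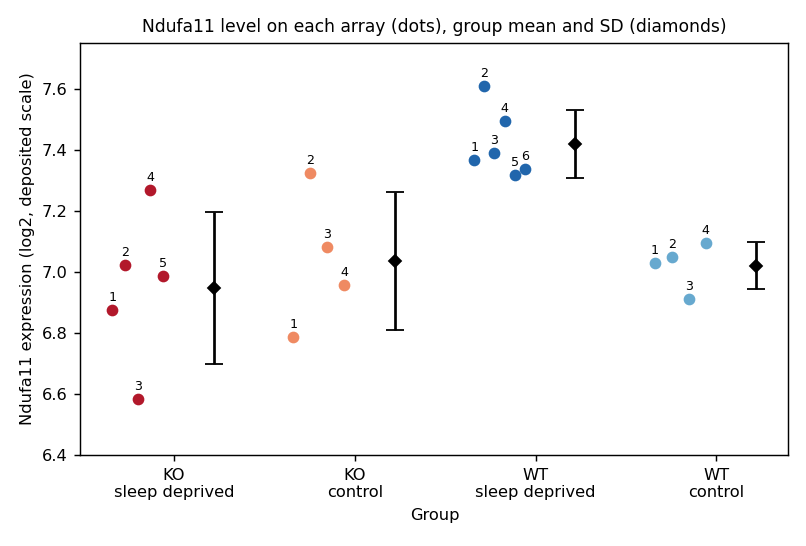
Ndufa11 log2 expression on each array (dots, numbered by replicate) in the 4 groups, with the group mean and SD as diamonds and bars. The 6 sleep-deprived wild-type arrays, from 7.32 to 7.61, lie above all sleep-deprived knockout and all wild-type control arrays, and 1 knockout control array, at 7.32, reaches their range.

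The mean log2 level was 6.95 ± 0.25 in sleep-deprived knockout mice (SD, n = 5) and 7.42 ± 0.11 in sleep-deprived wild-type mice (SD, n = 6). It was 7.04 ± 0.23 in knockout controls and 7.02 ± 0.08 in wild-type controls (SD, n = 4 each). In descending order the groups were sleep-deprived wild type, knockout control, wild-type control and sleep-deprived knockout. The last 3 means lay within 0.09 of each other, less than the residual SD of 0.18 within groups. Within each array, the share of rows dimmer than Ndufa11 was 64.1% to 76.4% in sleep-deprived knockout mice and 77.8% to 81.5% in sleep-deprived wild-type mice. In controls this share was 67.4% to 78.0% in the knockout and 70.1% to 74.3% in wild type, so the gene sat in the brighter part of the rows throughout.

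After sleep deprivation the knockout minus wild-type difference was -0.47 ± 0.10 on the log2 scale (SE), which is 72.1% of the wild-type level. Ndufa11 was selected on this very difference, which had passed limma's threshold, an adjusted p under 0.05 over all rows, so its size is given as a description and no test is attached. In that comparison 1.68% of all rows passed, and 0.137% of all rows passed as lower in the knockout, and the median difference over all rows was 0.01. The difference ran from -0.55 without knockout replicate 4 to -0.38 without knockout replicate 3 when each of the 19 arrays was left out in turn. With each array centred on its median it was -0.49, and with quantile normalization -0.51.

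The means compared between genotypes in undisturbed mice come from other arrays than those for which the gene was chosen. This contrast was tested. Knockout controls differed from wild-type controls by 0.02 ± 0.12 on the log2 scale (SE; 95% interval -0.24 to 0.27). Limma's moderated test gave an adjusted p = 0.987, and an exact two-sided permutation test on the 4 against 4 arrays gave p = 0.886, where the smallest p this design allows is 0.0286. The SE, interval and moderated test took their spread from the fit of all arrays, sleep-deprived ones included. The permutation test used the control arrays alone. With only the 2 control groups in the fit, the SE was 0.11 (limma adjusted p = 0.979). With 4 arrays a group, differences inside the 95% interval are not excluded, and this interval is not a limit of detection. The sign of this small difference turned with array centring (-0.022), quantile normalization (-0.0067) and array weights (-0.039), and without knockout control replicate 2 (-0.079) or wild-type control replicate 3 (-0.020). In this comparison 0% of the 8751 rows passed limma's threshold, with 476 at an unadjusted p under 0.05.

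The effect of 6 h of sleep deprivation was examined within each genotype. These values share the sleep-deprived arrays with the contrast for which the gene was chosen, so they are given without a test. In the knockout the sleep-deprived minus control difference was -0.09 ± 0.12 on the log2 scale (SE), with overlapping groups. Of the 5 sleep-deprived knockout arrays, 1 lay below all knockout controls and none above them. In wild type the difference was 0.40 ± 0.11 (SE), a 1.32-fold higher level. All 6 sleep-deprived wild-type arrays lay above all 4 wild-type controls, with a gap of 0.22 between the groups. How many of all rows separate these groups as fully was not counted. The difference between these 2 responses, knockout minus wild type, was -0.49 ± 0.16 (SE). Of all rows, 0% passed limma's threshold for sleep deprivation in wild type, so no row, Ndufa11 included, was called there. For the difference between the responses 0.0686% of all rows passed, and Ndufa11 was not among them. The genotype gap after sleep deprivation went with a higher mean in sleep-deprived wild-type mice, on arrays that also served to choose the gene. In the knockout the difference was smaller than its SE. Whether only wild type responds was not tested.

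**Figure D2:**
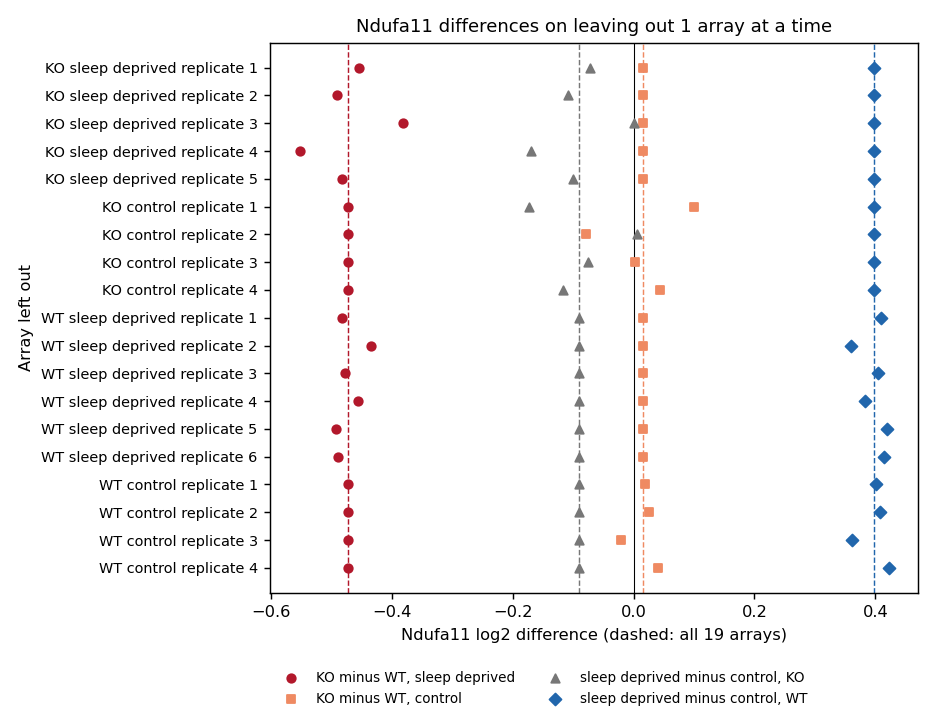
Log2 differences of Ndufa11 (x axis) for the 4 pairs of groups when each array (y axis) was left out in turn; dashed lines mark the values with all arrays. The difference between genotypes after sleep deprivation stays between -0.55 and -0.38 and that between sleep-deprived and control wild-type mice between 0.36 and 0.42, while the other 2 lie near 0 and each changes sign on leaving out some arrays.

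The knockout arrays were more scattered for Ndufa11 than the wild-type ones. Its range was 0.68 over 5 sleep-deprived knockout arrays and 0.29 over 6 sleep-deprived wild-type arrays, and 0.54 over 4 knockout and 0.18 over 4 wild-type controls. For a typical row the SD was 0.15 in sleep-deprived knockout and 0.17 in sleep-deprived wild-type mice, and 0.15 in knockout and 0.13 in wild-type controls (medians over all rows). The SD of Ndufa11 exceeded that of 83.4% of rows in sleep-deprived knockout mice and of 21.8% in sleep-deprived wild-type mice. The same share was 77.4% in knockout controls and 24.2% in wild-type controls. The difference in spread was not tested. Limma's SEs of Ndufa11 assume the same spread in all groups. For sleep deprivation they were 0.11 in wild type and 0.12 in the knockout. With only the 2 groups compared in the fit they were 0.08 in wild type and 0.14 in the knockout.

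Few other parts of the respiratory chain had a row of their own: 2 of 45 listed complex I subunits, Ndufa11 included, 1 of 19 complex I assembly factors, and 6 of 104 genes of complexes II to IV, cytochrome c and ATP synthase. Of the 8 genes besides Ndufa11, 0 passed limma's test in the knockout minus wild-type comparison after sleep deprivation, against 1.68% of all rows. At an unadjusted p under 0.05 there were 0 of the 8, against 1345 of 8751 rows. The sign was positive for 4 of the 8 genes and negative for 4, the median log2 difference was -0.00 against 0.01 over all rows, and the values ran from -0.13 to 0.15. None of the 8 passed in the other comparisons either, with 1 at an unadjusted p under 0.05 between genotypes in controls, 0 for sleep deprivation of knockout mice, 1 for that of wild-type mice and 2 for the difference between the responses. Over all rows 0.263% passed for sleep deprivation of knockout mice, 0% for that of wild-type mice and 0.0686% for the difference between the responses. With shares this small, counts of 0 do not set the 8 genes apart. Rows at an unadjusted p under 0.05 numbered 476 between genotypes in controls, 1030 for sleep deprivation of knockout mice, 683 for that of wild-type mice and 1007 for the difference between the responses.

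Ndufa12, the other measured complex I subunit, sits on the matrix arm. Its log2 level averaged 7.40 ± 0.13 in sleep-deprived knockout mice (SD, n = 5) and 7.29 ± 0.11 in sleep-deprived wild-type mice (SD, n = 6). In controls it averaged 7.34 ± 0.04 in the knockout and 7.38 ± 0.08 in wild type (SD, n = 4 each). Its log2 difference between genotypes after sleep deprivation was 0.11 ± 0.07 (SE; limma adjusted p = 0.477), and its difference for sleep deprivation in wild type was -0.09 ± 0.07 (SE; limma adjusted p = 0.767). Ndufaf2, an assembly factor related in sequence to Ndufa12, differed between genotypes after sleep deprivation by -0.09 ± 0.08 on the log2 scale (SE; limma adjusted p = 0.678).

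Further along the chain, Sdhaf1, an assembly factor of complex II, differed between genotypes after sleep deprivation by -0.13 ± 0.07 on the log2 scale (SE; limma adjusted p = 0.343). Uqcrb, a subunit of complex III, differed by 0.13 ± 0.08 (SE; limma adjusted p = 0.461). Cox14 and Coa3, which act early in the assembly of cytochrome c oxidase, differed by -0.05 and 0.04. Atp5l and Atp5md, membrane subunits of ATP synthase, differed by 0.15 and -0.06. Atp5l had the smallest p of the 8 for the difference between the responses, with a log2 value of 0.38 ± 0.14 (SE; limma adjusted p = 0.284).

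**Figure D3:**
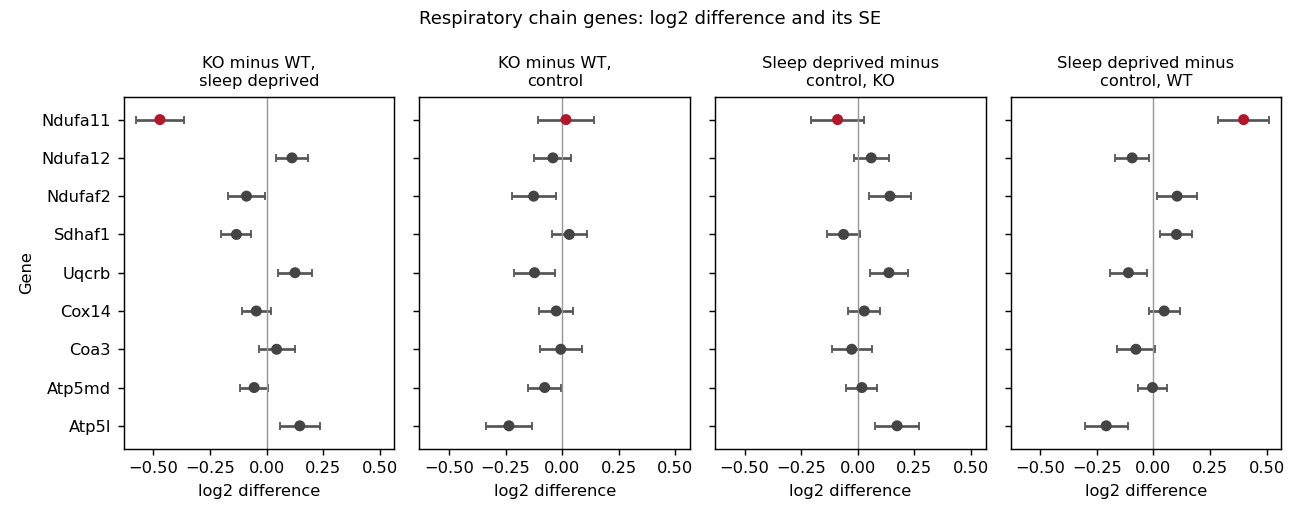
Log2 differences (dots) and their SE (bars) of Ndufa11 (red) and the 8 other measured respiratory chain genes (grey) in 4 comparisons. Ndufa11 stands at -0.47 between genotypes after sleep deprivation and at 0.40 for sleep deprivation in wild type, while the other genes lie between -0.13 and 0.15 and between -0.21 and 0.10 in these comparisons. Ndufa11 was chosen for the first of these differences and the other genes were not, so its distance from them is no test.

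Of 11 measured genes for mitochondrial ribosomal proteins, protein import and coenzyme Q, 0 passed limma's test between genotypes after sleep deprivation, against 1.68% of all rows, with 0 at an unadjusted p under 0.05, against 1345 of 8751 rows. The sign was positive for 10 and negative for 1, with a median log2 difference of 0.03 against 0.01 over all rows. Coq10b, which binds coenzyme Q, had the smallest p, with a log2 difference of 0.15 ± 0.08 (SE; limma adjusted p = 0.352). Mrpl47 and Mrpl12, of the large subunit of the mitochondrial ribosome, followed with 0.35 ± 0.19 (SE; limma adjusted p = 0.386) and 0.03 (limma adjusted p = 0.878). In the other 4 comparisons 0 of the 11 passed limma's test, with 1, 1, 0 and 1 at an unadjusted p under 0.05 for genotype in controls, sleep deprivation of knockout mice, sleep deprivation of wild-type mice and the difference between the responses. The shares of all rows that passed there were 0%, 0.263%, 0% and 0.0686%, in the same order, so the counts of 0 do not set these genes apart. Clpp, the proteolytic subunit of a mitochondrial matrix protease, was the 1 measured gene within 2 Mb of Ndufa11, and it differed between genotypes after sleep deprivation by -0.03 on the log2 scale (limma adjusted p = 0.867).

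Genes whose levels followed Ndufa11 most closely were ranked by Pearson correlation over the 19 arrays among 718 named genes. These correlations are descriptions, since the arrays share the 4 groups and the choice of Ndufa11. The 5 highest belonged to Mybl2, a transcription factor of the cell cycle (0.73, Spearman 0.64), Rpl34 (0.72, Spearman 0.65) and Rplp1 (0.65, Spearman 0.65), both cytosolic ribosomal proteins, Neurod1, a neuronal transcription factor (0.65, Spearman 0.70), and Chd5, a chromatin remodeller of neurons (0.59, Spearman 0.61). With group means subtracted they were 0.39 for Mybl2, 0.55 for Rpl34, 0.49 for Rplp1, 0.60 for Neurod1 and 0.27 for Chd5, so the ranking rested in part on the group means. Mybl2 averaged 5.70 ± 0.15 in sleep-deprived knockout mice (SD, n = 5) and 5.94 ± 0.10 in sleep-deprived wild-type mice (SD, n = 6). In controls Mybl2 averaged 5.72 ± 0.09 in the knockout and 5.70 ± 0.11 in wild type (SD, n = 4 each), the same order of highest group as for Ndufa11.

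The 3 lowest correlations were those of Sh3gl2, which encodes the synaptic endocytosis protein endophilin A1 (-0.70, Spearman -0.65), Luzp2, a leucine zipper gene (-0.64, Spearman -0.61), and Coq10b (-0.61, Spearman -0.60). With group means subtracted these were -0.51 for Sh3gl2, -0.42 for Luzp2 and -0.49 for Coq10b. Sh3gl2 averaged 8.95 ± 0.10 in sleep-deprived knockout mice (SD, n = 5) and 8.61 ± 0.24 in sleep-deprived wild-type mice (SD, n = 6). The log2 difference was 0.34 ± 0.10 (SE). These 8 genes were picked for their correlation with Ndufa11 on the same arrays, so their genotype differences are descriptions, not independent tests. None of the 8 passed limma's threshold between genotypes after sleep deprivation, and 1.68% of all rows did.

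**Figure D4:**
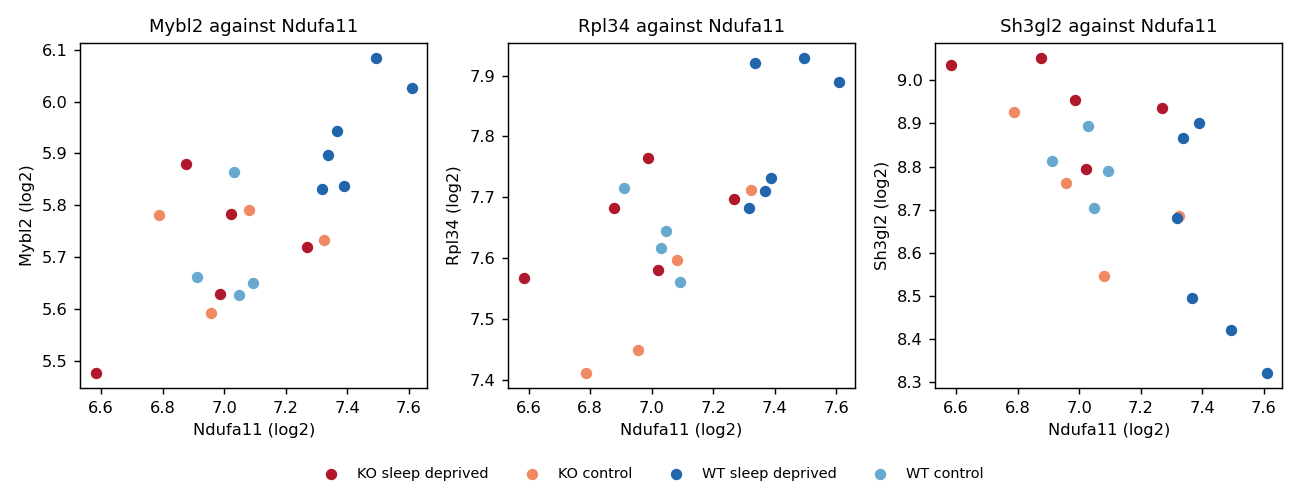
Log2 levels of Mybl2, Rpl34 and Sh3gl2 (y axes) against Ndufa11 (x axis) on the 19 arrays, coloured by group. Mybl2 and Rpl34 have Pearson correlations of 0.73 and 0.72 with Ndufa11 and Sh3gl2 one of -0.70, and the sleep-deprived wild-type arrays lie towards the right of each panel, with 1 knockout control array, at 7.32, among them.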

How the data were processed

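Per the labels, biotin-labelled forebrain RNA of 19 samples was read on Mouse Gene 2.0 ST arrays. The authors deposited log2 expression, from 2.18 to 14.2, for 8751 probe sets. The submitters' processing notes name RMA, oligo and limma, without versions or roles, and the genome build is not given here. Of the rows, 1308 have 1 platform symbol, 1178 several and 6265 none here, and 346 repeat an earlier row.

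All arrays entered 1 limma fit of the 4 groups (limma 3.58.1, R 4.3.3) without covariates, with Benjamini-Hochberg adjustment over all rows. The scripts were tested on simulated data. The gene and the lists were chosen with earlier results of these data known. Named genes were Ndufa11, the measured complex I genes, any called gene of each other list or else up to 3 of smallest p between genotypes after sleep deprivation, and the 5 highest and 3 lowest correlations, passing over predicted, microRNA, small nucleolar and chemoreceptor genes. Clpp, Mrpl20 and the promoter motifs were added after the data were seen. Same-numbered arrays did not deviate together (0 of 25 pairs over 0.1), so the numbers were not taken to pair samples. Alternatives covered normalization, prior, weights, rows, samples, block and each array left out. Plots used matplotlib 3.10.9 in Python 3.11.15.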

Additional observations from a re-analysis of the deposited data

Results flagged for a closer look

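Among 108 sets of 1 named gene in 1 group, 7 held an array far from its group by Dixon's test at the 95% level, which chance gives in about 1 of 20, and none was a set of Ndufa11. KO_control replicate 2 stood low for Atp5l (9.91, with 10.2 as the nearest) and for Mrpl20 (6.61, with 7.15 as the nearest), and its Ndufa11 level, 7.32, was the highest of the knockout controls. Its array weight was 0.573. The part of that array in the control values of Ndufa11 can be read from their values without it, -0.079 between genotypes in controls and 0.0059 for sleep deprivation in the knockout. KO_sleep_deprived replicate 5 stood low for Cox14 (8.44) and KO_sleep_deprived replicate 2 high for Atp5md (12.2). Among the genes most like Ndufa11, WT_control replicate 1 stood high for Mybl2 (5.86), and WT_sleep_deprived replicate 4 (6.49) and WT_control replicate 2 (6.43) stood high for Neurod1.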

How the results depend on the processing

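The knockout minus wild-type difference of Ndufa11 after sleep deprivation kept its sign in all 28 alternatives, from -0.55 to -0.38 without 1 array and from -0.51 to -0.47 otherwise. The sleep deprivation difference in wild type did so in all 28, from 0.36 to 0.42 without 1 array and from 0.37 to 0.42 otherwise, and the difference between the responses in all 27, from -0.57 to -0.39 without 1 array and from -0.50 to -0.46 otherwise. Between genotypes after sleep deprivation, and between sleep-deprived and control wild-type mice, the groups did not overlap, so leaving out 1 array could not turn the sign. Prior, row filters and arrays of other groups leave such a difference of means unchanged. These counts are therefore not a measure of robustness. Between genotypes in controls the difference ran from -0.079 to 0.10 without 1 array and turned negative with quantile normalization (-0.0067), array centring (-0.022) and array weights (-0.039), with adjusted p from 0.952 to 1.00 in limma's test over all alternatives. For sleep deprivation in the knockout it ran from -0.17 to 0.0059 without 1 array, with 0.0059 without KO_control replicate 2 and 0.0012 without KO_sleep_deprived replicate 3. With the replicate block the values were -0.49 and 0.02 between genotypes after sleep deprivation and in controls, -0.08 and 0.42 for sleep deprivation in the knockout and in wild type, and -0.50 for the difference between the responses. The number of the 19 other respiratory chain and mitochondrial genes called was 0 in every comparison and alternative run, a threshold of 0.10 included. Averaging several Ndufa11 rows was not run, since there is 1 row.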
